A study of Homo sapiens with 8 samples.

Results

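The genes described here are 10 receptor tyrosine kinases for growth factors, PDGFRA, PDGFRB, FGFR1, FGFR2, FGFR3, FGFR4, EGFR, ERBB2, MET and KIT, chosen by name as receptors known as drivers or drug targets in rhabdoid tumors. They are 10 of the 20719 genes in the count files, matched by Ensembl gene ID. Ribosome profiling libraries of G401, an established rhabdoid kidney tumor cell line that lacks SMARCB1, were analysed, with 2 libraries in each of 4 groups and 6 plates of cells pooled per library. One line carried a doxycycline-inducible (Tet-On) SMARCB1 and the other a doxycycline-inducible GFP. Each was given 0.1 μg/ml doxycycline (SMARCB1 Dox, GFP Dox) or DMSO (SMARCB1 DMSO, GFP DMSO) for 12 h. SMARCB1 DMSO, GFP DMSO and GFP Dox are therefore all cells without SMARCB1, and the comparisons of the lines hold both the transgene and the history of each engineered population, which cannot be told apart. RNA-seq was not analysed here, so each value is ribosome occupancy, the number of ribosome-protected fragments on a coding sequence, and not translation efficiency or mRNA level. In these bulk samples fewer cells with a transcript and less of it per cell cannot be told apart.

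The libraries held 5924443 to 14000039 counts on genes. Fragments of SMARCB1, the gene re-expressed, were found after its induction (2553 and 1750 counts) and not in the 6 libraries of other groups (0 counts each), which matches the labels. VIM, KRT8 and KRT18, which rhabdoid tumor cells carry together, had at least 745.8 CPM (counts scaled to library size with TMM factors) in every library. MUC1 had at most 4.141 CPM, FN1 at most 6 counts, and CD99 had 0 counts in all libraries. Reads aligned to several places were not counted, so the 0 of CD99 was not read as absence. S100A4, a mesenchymal marker, differed between the lines, with 1.255 to 3.646 CPM in the SMARCB1 line and 48.14 to 100.4 CPM in the GFP line. It was called lower in SMARCB1 DMSO than in GFP DMSO (log2 fold change -5.29, adjusted p = 5.84e-06) and in SMARCB1 Dox than in GFP Dox (-5.04, adjusted p = 1.14e-05), and its part in the results for the receptors was not tested. Of 18 markers of blood, endothelial, epithelial, melanocytic, neural and mast cells, 11 had 0 counts in all 8 libraries, none exceeded 11 counts, and their summed level lay between 1 and 2.81 CPM. GFP Dox replicate 1 stood apart, with 56.4% of its reads aligned to more than 1 place (25.6% to 39.7% in the other 7).

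Receptor tyrosine kinases span the plasma membrane. A ligand brings receptor chains together, the intracellular kinase domains phosphorylate each other on tyrosines, and adaptors that bind these sites pass the signal to the RAS-MAPK and PI3K-AKT routes. The PDGF receptors and KIT are closely related receptors of mesenchymal and blood or germ cells, the 4 FGF receptors bind FGFs together with heparan sulfate, EGFR and ERBB2 belong to the ERBB family, in which ERBB2 has no ligand of its own, and MET binds HGF.

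The coding sequences of these genes are homologous, so it was first asked how far short fragments can be told apart between them. The stretch shown is the activation loop of the kinase domain, from the conserved motif that opens it to the one that closes it, with tyrosine codons in capitals. It is given for the PDGF receptor pair, since the contrast between the lines turns on PDGFRA, and for FGFR3 and FGFR4, the pair with the longest shared run (GRCh38, read 5′ to 3′ on the coding strand and joined across 2 exons in each gene). The loops of PDGFRA (chr4:54285907-54287462, plus strand) and PDGFRB (chr5:150120091-150120944, minus strand) encode amino acids that are 90% identical, whereas the whole proteins are 47.3% identical over aligned positions.
PDGFRA: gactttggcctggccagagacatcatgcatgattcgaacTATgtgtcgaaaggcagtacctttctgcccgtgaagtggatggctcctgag
PDGFRB: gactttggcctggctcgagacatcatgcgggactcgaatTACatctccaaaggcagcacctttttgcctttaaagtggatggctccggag
FGFR3: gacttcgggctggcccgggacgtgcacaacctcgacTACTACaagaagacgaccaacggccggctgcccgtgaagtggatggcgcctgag
FGFR4: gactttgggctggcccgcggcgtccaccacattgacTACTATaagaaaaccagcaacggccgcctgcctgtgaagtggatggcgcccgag
The FGFR3 loop lies at chr4:1806117-1806289 and the FGFR4 loop at chr5:177096123-177096319, both on the plus strand. Between the coding sequences of PDGFRA and PDGFRB the longest identical run was 23 bases, shorter than a window of 28 bases, about the length of a footprint. FGFR3 (chr4:1806061-1806091) and FGFR4 (chr5:177096067-177096097) share one run of 31 bases just before the loop.
FGFR3 and FGFR4, shared run: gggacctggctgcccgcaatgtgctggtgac
Of all windows of 28 bases in the coding exons of FGFR3, 0.71% were found again elsewhere in the genome, against 0.333% in FGFR4, 1.25% in PDGFRA, 2.71% in ERBB2, 1.56% in FGFR1 and 0% in PDGFRB, FGFR2, EGFR, MET and KIT. Within single coding exons, and by exact matches, a fragment of that length therefore points to 1 gene nearly everywhere. Windows across exon junctions were not searched in the genome, nor were shorter fragments or matches with mismatches. PDGFRA has another limit. Of its 3441 coding bases, 1530 are also annotated to ENSG00000282278, a readthrough gene, and these include all 90 bases of the loop. Fragments there were not counted for either gene by the authors' method, so counts for PDGFRA come from the other 1911 bases, in every library alike.

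Levels were compared between genes per kb of coding sequence. FGFR2, a receptor of epithelial and mesenchymal FGFs, had the highest occupancy of the 10 in all 8 libraries. Its level was 232 CPM per kb at the median and 200 to 305 over the libraries, the 94.5th percentile of the genes tested. FGFR1 (chromosome 8 of GRCh38, 38400215 to 38468834), the FGF receptor best known from mesenchymal tumors, followed with a median of 105 CPM per kb (60.9 to 118). PDGFRB and EGFR came next with medians of 56.6 (42.8 to 81.5) and 51.2 (36.4 to 72.1) CPM per kb. These neighbours had no fixed order. PDGFRB was above EGFR in 4 of 8 libraries, those of the GFP line, and below it in those of the SMARCB1 line.

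ERBB2 had a median of 29.3 CPM per kb (22.1 to 46). It was followed at a distance by PDGFRA with 5.94 CPM per kb, a median that describes no library, since its levels fell into separate ranges of 0.0485 to 0.921 and 11 to 16.4. By group means over all coding bases PDGFRA was the 6th of the 10 in both GFP groups and the 9th, below MET, in both SMARCB1 groups. Per kb of the bases counted for the gene alone, it was above MET in SMARCB1 Dox (1.27 against 0.767 CPM). In SMARCB1 DMSO it stayed below MET on that length (0.186 against 0.887 CPM). FGFR4 (4.02, from 2.04 to 5.79) and FGFR3 (2.49, from 1.72 to 5.74) overlapped, with FGFR4 higher in 6 of 8 libraries. MET, the HGF receptor, lay at the 2.56th percentile with 0.397 CPM per kb. KIT was hardly detected, with 1 count in SMARCB1 DMSO replicate 1, 1 in GFP Dox replicate 2 and 0 elsewhere. A count of 0 allows up to 3 counts, which is 0.208 to 0.5 CPM at these depths (counting error only). KIT did not pass the expression filter and was not tested. The order of the 10 medians was the same with the longest coding sequence of each gene as its length, and with only the bases counted for the gene alone, which moved PDGFRA to 10.7 CPM per kb. The plot of levels by library shows the spread of each receptor.

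**Figure D1:**
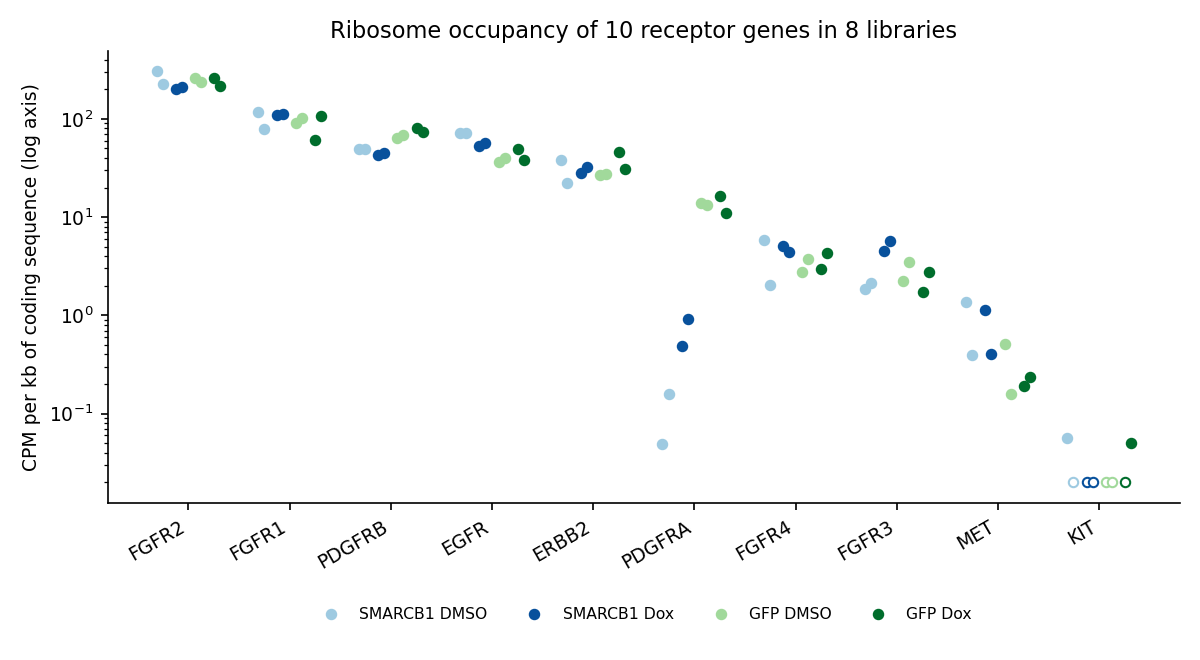
Ribosome occupancy of the 10 receptors in CPM per kb of coding sequence (log axis), 1 point per library, colored by group and ordered by the median over the 8 libraries. Hollow points at the bottom are libraries with 0 counts. FGFR2 is at 200 to 305 in all libraries, and PDGFRA lies below 1 in the 4 libraries of the SMARCB1 line and at 10.96 or above in the 4 of the GFP line.

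The effect of SMARCB1 re-expression was assessed first. A gene was called at an adjusted p below 0.05 (edgeR's quasi-likelihood test, Benjamini-Hochberg over 11097 genes) and a fold change above 2. None of the 9 receptors tested was called in SMARCB1 Dox against SMARCB1 DMSO (0.018% of all genes called), and 2 of them had an unadjusted p below 0.05, as had 552 of all genes. DESeq2 called 0 of them as well. PDGFRA passed the filter through the GFP line, where it is high. In the SMARCB1 line the 2 Dox libraries lay outside the range of the 2 DMSO libraries for 5 of the 9 receptors, PDGFRA and FGFR3 above and PDGFRB, FGFR2 and EGFR below, against 35.6% of all genes. With 2 libraries a group, p-values rest on a spread between replicates that may be technical. That spread was estimated over all 8 libraries together, those of the GFP line included.

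PDGFRA (chromosome 4, 54229280 to 54298245), the receptor for PDGF-AA and other PDGF dimers, had 20 and 20 counts in SMARCB1 Dox and 1 and 7 in SMARCB1 DMSO. That is 2.42 ± 1.06 CPM against 0.356 ± 0.268 CPM (SD, n = 2). Both Dox libraries were above both DMSO libraries. The log2 fold change was 2.44 (standard error 0.57, unadjusted p = 0.000772, adjusted p = 0.317 in edgeR's quasi-likelihood test). On counting error alone, the 40 counts against 8 gave a ratio of 5.16 (95% interval 2.38 to 12.8). The call depended on the filter, since with every gene of at least 1 count in the fit the adjusted p was 0.00802. Leaving out 1 library at a time, the log2 fold change ranged from 1.98 to 3.68, the latter without SMARCB1 DMSO replicate 2, with adjusted p of 0.458 or above.

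FGFR3 (chromosome 4, 1793293 to 1808872), an FGF receptor known for restraining bone growth, had 142 and 94 counts in SMARCB1 Dox, or 11.88 and 14.9 CPM. It had 29 and 71 counts in SMARCB1 DMSO, or 4.837 and 5.532 CPM. The Dox libraries were also above those of GFP DMSO (5.841 and 9.17 CPM) and GFP Dox (4.467 and 7.099 CPM), so they were the highest of the 8. The log2 fold change against SMARCB1 DMSO was 1.35 (standard error 0.41, unadjusted p = 0.00544, adjusted p = 0.52). FGFR4 (chromosome 5, 177086905 to 177098144), the FGF receptor that mediates FGF19 signals in liver, had 12.89 and 11.26 CPM in SMARCB1 Dox. Its SMARCB1 DMSO libraries had 14.84 and 5.22 CPM and enclosed them (log2 fold change 0.31, 95% interval -0.67 to 1.28).

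The abundant FGF receptors showed smaller differences. FGFR2 (chromosome 10, 121478332 to 121598458) had 603.6 and 631.6 CPM in SMARCB1 Dox and 920.4 and 688.6 CPM in SMARCB1 DMSO. All 4 other libraries, of the GFP line, lay between 645.6 and 789.8 CPM, and the log2 fold change was -0.38, with a standard error of 0.25 and an adjusted p of 1. FGFR1 had 354.6 and 359.9 CPM in SMARCB1 Dox and 378.5 and 251.6 CPM in SMARCB1 DMSO. These groups overlapped, with a log2 fold change of 0.18 and a 95% interval of -0.44 to 0.80.

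Within the FGF receptors, FGFR2 made up 62.6% and 63.2% of the summed occupancy per kb in SMARCB1 Dox and 70.9% and 73.5% in SMARCB1 DMSO. In GFP DMSO its share was 73.2% and 68.1%. GFP Dox held both the highest share of the 8, 80% in replicate 1, and a low one, 65.4% in replicate 2. The spread within GFP Dox was thus larger than the gap between the SMARCB1 groups. FGFR1 had 18.6% to 34.4%, and FGFR3 with FGFR4 the small rest.

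**Figure D2:**
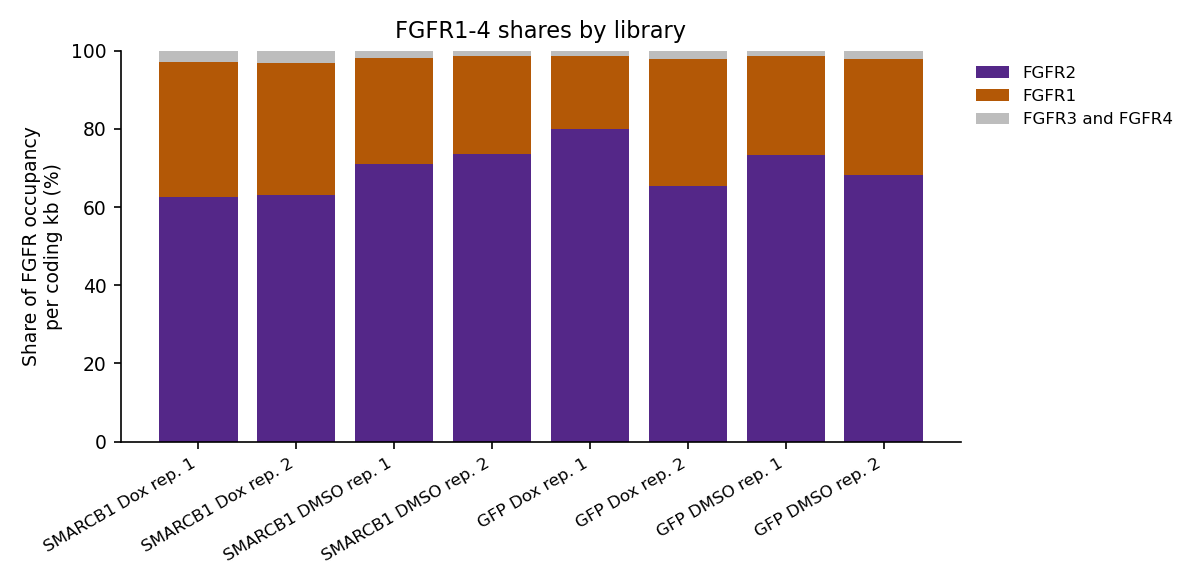
Share of the summed CPM per kb of FGFR1 to FGFR4 in each library (bars from 0 to 100%). FGFR2 has the largest share in every library, from 62.6% in SMARCB1 Dox replicate 1 to 80% in GFP Dox replicate 1, and FGFR1 holds most of the rest.

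PDGFRB (chromosome 5, 150113839 to 150155872), the receptor for PDGF-BB that marks pericytes and fibroblasts, had 143.6 and 149.5 CPM in SMARCB1 Dox and 166.5 and 164.2 CPM in SMARCB1 DMSO. The Dox libraries were the lower ones by a small step, with a log2 fold change of -0.17 (95% interval -0.64 to 0.29). EGFR (chromosome 7, 55019017 to 55211628), the receptor for EGF and HBEGF, had 212.1 and 226.2 CPM against 289.6 and 289.4 CPM, again lower in Dox without overlap. Its log2 fold change was -0.40 (95% interval -0.89 to 0.09, adjusted p = 1). ERBB2 (chromosome 17, 39687914 to 39730426), the ligandless partner of the ERBB family, had 110.4 and 128.9 CPM within the 149.4 and 87.49 CPM of SMARCB1 DMSO. MET (chromosome 7, 116672196 to 116798377) had 59 and 11 counts in SMARCB1 Dox and 36 and 22 in SMARCB1 DMSO, a spread that leaves a log2 fold change of -0.12 with an interval of -1.77 to 1.54.

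Doxycycline with GFP served as the control for the drug and for induction of a protein. No receptor was called in GFP Dox against GFP DMSO (0% of all genes called), none had an unadjusted p below 0.05 against 240 of all genes, and DESeq2 called 0. The groups did not overlap for 2 of 9 receptors, PDGFRB and ERBB2, both higher in Dox, against 26.3% of all genes. PDGFRB had 273.1 and 246.3 CPM in GFP Dox and 213.2 and 228.8 CPM in GFP DMSO (log2 fold change 0.23, standard error 0.22). ERBB2 had 182.2 and 121.3 CPM against 105.4 and 108.6 CPM (log2 fold change 0.50, standard error 0.28, adjusted p = 1). The higher ERBB2 value came from GFP Dox replicate 1, and without that library the log2 fold change was 0.18. PDGFRA had 341 and 255 counts in GFP Dox and 578 and 661 in GFP DMSO, or 47.06 ± 13.22 against 46.73 ± 1.15 CPM (SD, n = 2). Its log2 fold change was 0.01 with a 95% interval of -0.67 to 0.69. For FGFR1, FGFR2, FGFR3, FGFR4, EGFR and MET the log2 fold change lay between -0.62 and 0.20.

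The difference between the effects of doxycycline in the lines was tested directly. None of the 9 receptors was called (0% of all genes called), while 2 had an unadjusted p below 0.05, as had 443 of all genes. DESeq2 called 0. PDGFRA differed by 2.43 on the log2 scale (95% interval 1.01 to 3.84, adjusted p = 0.981) and FGFR3 by 1.73 (95% interval 0.48 to 2.98, adjusted p = 0.981). EGFR differed by -0.61 (95% interval -1.30 to 0.09), lower in SMARCB1 Dox and with overlapping libraries in the GFP line.

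The lines themselves were then compared, first without induction and then with doxycycline. PDGFRA was the receptor with the largest difference between them. In SMARCB1 DMSO against GFP DMSO it was called lower, the only one of 9 receptors called (4.97% of all genes called, 2.49% higher and 2.49% lower). It had 8 counts in both SMARCB1 DMSO libraries together and 1239 in GFP DMSO, with levels of 0.1668 and 0.5454 against 47.55 and 45.92 CPM. On the log2 scale the change was -6.77 with a standard error of 0.49 (adjusted p = 5.67e-07), which is 109-fold lower. The counting ratio was 110-fold, with a 95% interval of 55.6 to 255. Without SMARCB1 DMSO replicate 2, which leaves 1 count in that group, the log2 fold change was -8.02 (adjusted p = 0.00015). SMARCB1 DMSO replicate 1 left out gave -6.39.

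With doxycycline in both lines PDGFRA was called lower in SMARCB1 Dox than in GFP Dox, again the only receptor called (6.08% of all genes called, 3.1% higher and 2.98% lower). Its level was 1.673 and 3.171 CPM against 56.42 and 37.71 CPM. This is a log2 fold change of -4.34 with a standard error of 0.40 (adjusted p = 6.95e-06), or 20.3-fold lower, and it stayed between -4.80 and -3.89 with each library left out. These comparisons share no library with each other, but each shares its libraries with the doxycycline comparisons above. PDGFRA made up 0.0975% and 0.323% of the occupancy per kb of both PDGF receptors in SMARCB1 DMSO, 1.12% and 2.02% in SMARCB1 Dox, and 13% to 17.8% in the GFP line. Over the bases counted for each gene alone, the shares were 0.175% and 0.579%, 2% and 3.59%, and 21.2% to 28.1%. PDGFRB was thus the main PDGF receptor in all 8 libraries. The readthrough gene that overlaps PDGFRA had 1.17 to 4.6 CPM in the SMARCB1 line and 1.65 to 5.14 CPM in the GFP line.

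**Figure D3:**
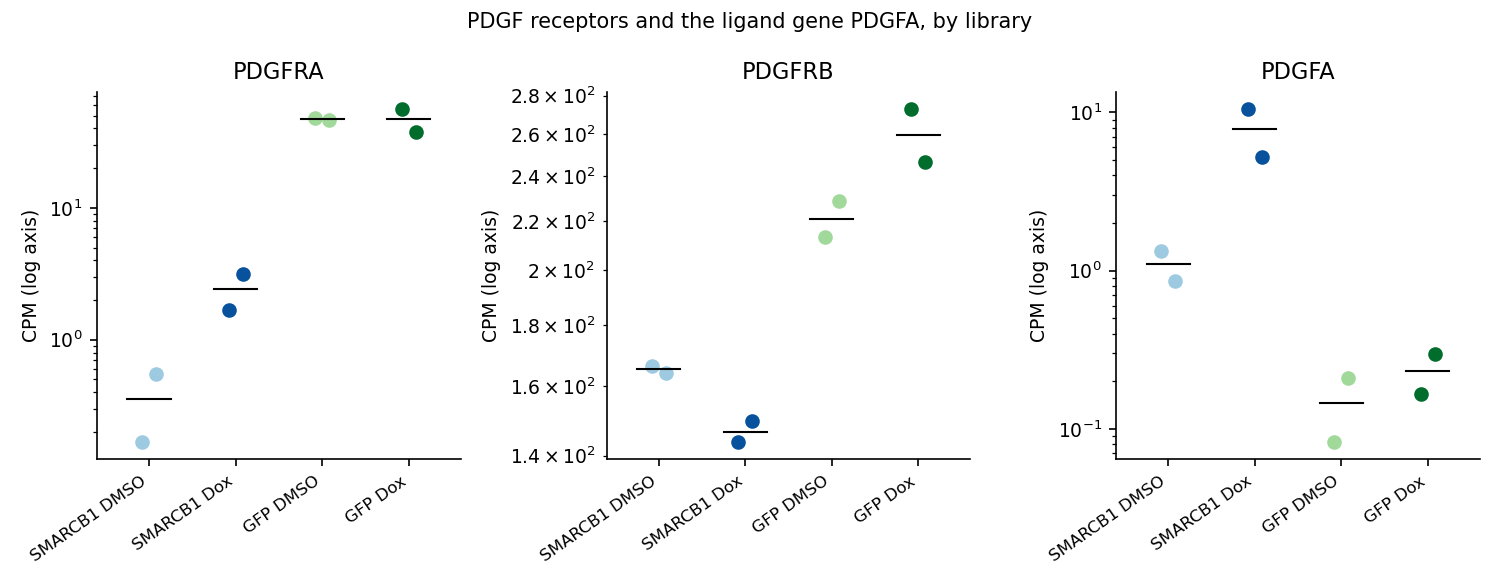
CPM of PDGFRA, PDGFRB and the ligand gene PDGFA in each library (log axis, with a range of its own in each panel), 2 points and their mean (line) per group. PDGFRA and PDGFRB lie lower in all 4 libraries of the SMARCB1 line than in the 4 of the GFP line, PDGFA lies higher, and PDGFA and PDGFRA both are higher in SMARCB1 Dox than in SMARCB1 DMSO.

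Beside PDGFRA, EGFR and PDGFRB passed the adjusted p in 1 comparison each without reaching a 2-fold change. In SMARCB1 DMSO against GFP DMSO, 2 of 9 receptors had an adjusted p below 0.05 at any fold (5.29% of all genes). EGFR had 289.6 and 289.4 CPM against 145.9 and 158.9 CPM, 1.9-fold higher (log2 fold change 0.93, standard error 0.23, adjusted p = 0.0278). With any 1 of these 4 libraries left out its adjusted p was 0.0773 to 0.358. In SMARCB1 Dox against GFP Dox it was also 2 of 9 (6.55% of all genes). PDGFRB had 143.6 and 149.5 CPM against 273.1 and 246.3 CPM, 1.77-fold lower (log2 fold change -0.83, standard error 0.22, adjusted p = 0.0362). With all libraries kept, its adjusted p was 0.00527 to 0.0795 over 7 other settings of edgeR or DESeq2, so passing depended on the setting. With 1 library left out, its log2 fold change was -0.90 to -0.75. Under DMSO the log2 fold change of PDGFRB was -0.42 (adjusted p = 0.446).

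Over all conditions, the 4 libraries of one line did not overlap with the 4 of the other for 3 of 9 receptors, PDGFRA and PDGFRB lower and EGFR higher in the SMARCB1 line, against 17.6% of all genes. FGFR3 was at 11.88 and 14.9 CPM in SMARCB1 Dox and at 4.467 and 7.099 CPM in GFP Dox, 2.3-fold apart (adjusted p = 0.117). Under DMSO it was lower in the SMARCB1 line, again without overlap (log2 fold change -0.53, adjusted p = 0.687). With doxycycline it passed the threshold only without GFP Dox replicate 2 (log2 fold change 1.58, adjusted p = 0.041), where the calls over all genes went from 675 to 1372. That fit left replicate 1, the library that stood apart in its reads aligned to more than 1 place, as the whole GFP Dox group. MET had 70 counts in SMARCB1 Dox and 12 in GFP Dox. Its fitted difference was 1.86 (standard error 0.88, adjusted p = 0.275), and under DMSO, with 58 and 37 counts, 1.36 (standard error 0.80, adjusted p = 0.529). For FGFR1, FGFR2, FGFR4 and ERBB2 the differences between the lines lay between -0.34 and 0.41.

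**Figure D4:**
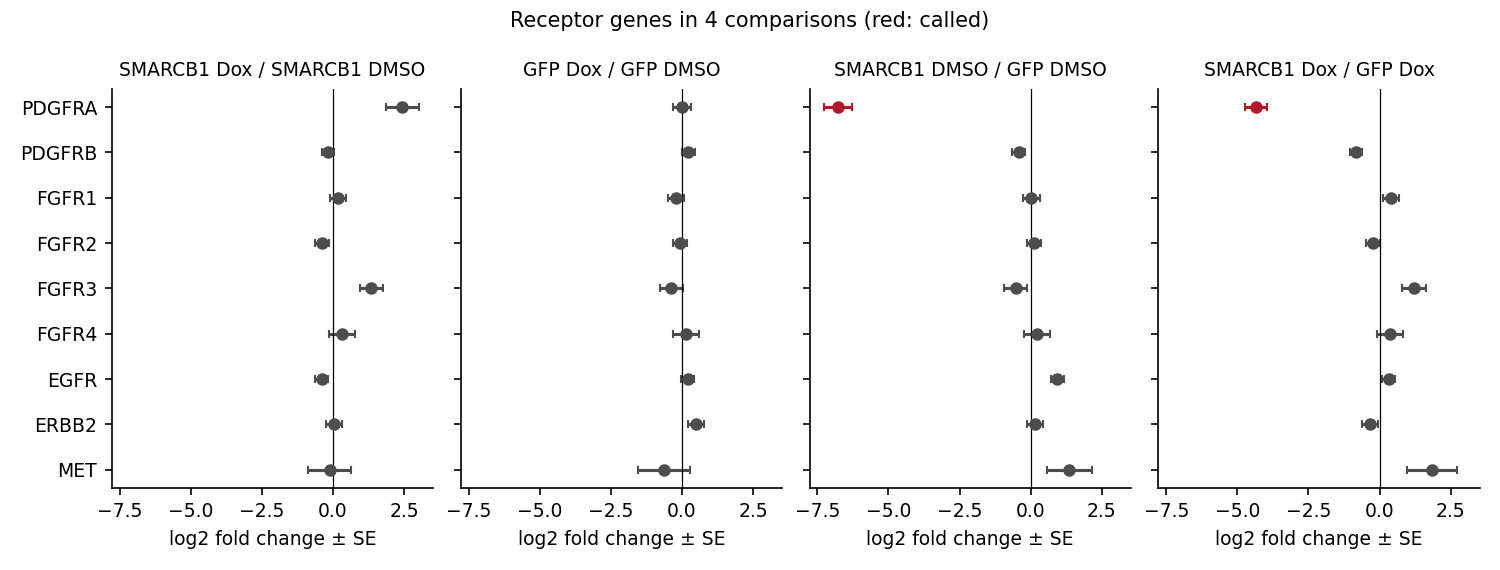
Log2 fold changes (points) with standard errors (bars) of the 9 receptors tested, in the 4 comparisons of groups, red where called. PDGFRA is called in both comparisons of the lines, at -6.77 and -4.34, and lies at 2.44 without being called in SMARCB1 Dox against SMARCB1 DMSO.

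The ligands were examined from a list of 37 genes, of which 15 had 0 counts in all libraries and 11 passed the filter. None was called for doxycycline in either line or for the difference. PDGFA, which encodes the A chain of PDGF and binds PDGFRA, had 126 and 33 counts in SMARCB1 Dox, 8 and 11 in SMARCB1 DMSO and 1 to 3 in each library of the GFP line. The line with little PDGFRA thus had more PDGFA counts, but PDGFA was not called in SMARCB1 DMSO against GFP DMSO (19 counts against 4). PDGFA was called higher in SMARCB1 Dox than in GFP Dox (adjusted p = 0.00197), with 159 counts against 3 and a counting ratio of 37.2 (95% interval 12.5 to 182). It passed the filter through SMARCB1 Dox, where it is high. It was not called without SMARCB1 Dox replicate 1. Against SMARCB1 DMSO it was 2.90 (standard error 0.69, unadjusted p = 0.000873, adjusted p = 0.323), with a counting ratio of 8.63 (95% interval 5.35 to 14.7). There it passed the threshold with DESeq2 (adjusted p = 0.0488) and with no filter beyond 1 count (adjusted p = 0.0345).

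NRG1, the ERBB3 and ERBB4 ligand, was called higher in the SMARCB1 line in both comparisons of the lines. It had 53.37 and 38.18 CPM in SMARCB1 DMSO against 11.85 and 8.892 CPM in GFP DMSO (log2 fold change 2.14, standard error 0.36, adjusted p = 0.00177). With doxycycline the log2 fold change was 1.71 (adjusted p = 0.0102), a call lost without SMARCB1 Dox replicate 1. FGF2, a ligand of all FGF receptors, was the most abundant ligand in CPM per kb, with 186.2 to 337.6. Its log2 fold changes lay between -0.25 and 0.18. HBEGF, a ligand of EGFR, had 18.15 to 28.02 CPM in 7 libraries and 66.84 CPM in GFP Dox replicate 1. PDGFB had 4.689 to 11.18 CPM and FGF11, which is related to the FGFs but acts inside cells, 3.64 to 11.71 CPM. FGF20 had 1.744 to 7.157 CPM. The KIT ligand gene KITLG had 13 counts in SMARCB1 Dox replicate 1 and 0 in the other 7 libraries, and HGF, the MET ligand, 1 count in all. FGF5, FGF8, FGF18, NRG2, PDGFC and EGF reached at least 10 counts in a library but no more than 4.503 CPM.

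Other receptor tyrosine kinases, 41 listed and 20 tested, gave 0 calls for doxycycline in either line. In SMARCB1 DMSO against GFP DMSO 0 were called higher and 2 lower, beside 2.49% of all genes each way. The lower ones were DDR1, a collagen receptor (log2 fold change -1.11, adjusted p = 0.0226), and EPHA5, an ephrin receptor with 0 counts in SMARCB1 DMSO against 24 and 13. With doxycycline 2 were called higher and 4 lower, beside 3.1% and 2.98% of all genes. AXL, the GAS6 receptor, had means of 39.03 CPM in SMARCB1 DMSO and 34.24 CPM in GFP DMSO. Its log2 fold change in SMARCB1 Dox against SMARCB1 DMSO was 1.26 and was not called. There edgeR's quasi-likelihood test gave an unadjusted p of 7.42e-05 and an adjusted p of 0.0832. With doxycycline in both lines AXL had 94.97 and 91.79 CPM in SMARCB1 Dox and 37.39 and 35.5 CPM in GFP Dox (log2 fold change 1.36, adjusted p = 0.0017). ERBB3, which pairs with ERBB2, was lower (log2 fold change -2.68, adjusted p = 0.00323), as was the ephrin receptor EPHB3 (-1.46, adjusted p = 0.00525), and both calls were lost without SMARCB1 Dox replicate 1 (adjusted p = 0.0827 and 0.114). EPHB1, EPHA5 and CSF1R, the CSF1 receptor, were called on counts of 42 or fewer per library. They passed the filter through the groups where they are high. None of these was called without either SMARCB1 Dox library or without GFP Dox replicate 1. The median log2 fold change of the 20 was 0.20 under DMSO and -0.07 with doxycycline, beside 0.02 and -0.01 over all genes.

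Co-receptors and matrix partners (21 listed, 14 tested) had 1 call under DMSO and 3 with doxycycline, all higher in the SMARCB1 line. Over all genes, 2.49% were called higher under DMSO and 3.1% with doxycycline. NRP2, a semaphorin and VEGF co-receptor, had 17.91 and 17.28 CPM in SMARCB1 Dox, 5.838 and 5.843 CPM in SMARCB1 DMSO and at most 0.7642 CPM in the GFP line. NRP2 passed the filter through the SMARCB1 line, where it is high. Its log2 fold change was 3.09 under DMSO (adjusted p = 0.00177) and 5.20 with doxycycline (adjusted p = 5.76e-05). SDC4 and SDC2, heparan sulfate proteoglycans that hold FGFs at the cell surface, were higher with doxycycline by 1.40 (adjusted p = 0.00209) and 1.10 (adjusted p = 0.0198). The SDC2 call was lost without either SMARCB1 Dox library (adjusted p = 0.117 and 0.14). The median over the list was 0.34 under DMSO and -0.01 with doxycycline.

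Adaptors and effectors (44 listed, 39 tested) had 2 lower calls under DMSO, and 1 higher and 1 lower with doxycycline. Over all genes, 2.49% were called lower under DMSO, and 3.1% higher and 2.98% lower with doxycycline. GAB1, a docking protein for PI3K and SHP2, was lower in the SMARCB1 line in both, by -1.07 (adjusted p = 0.0376) and -1.49 (adjusted p = 0.00423). FYN, a SRC family kinase, was lower under DMSO (-3.47, adjusted p = 0.0377) at 5 and 1 counts against 41 and 71, and NCK2, an adaptor to the cytoskeleton, was higher with doxycycline (1.27, adjusted p = 0.037). The list median was -0.06 and 0.15. For SMARCB1 Dox against SMARCB1 DMSO, where 0 of the 39 were called, it was 0.20 beside -0.02 over all genes.

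Negative regulators (36 listed, 29 tested) had 2 calls under DMSO and 3 with doxycycline, all higher in the SMARCB1 line. The shares called higher over all genes were 2.49% and 3.1%. SPRY2, a feedback inhibitor of FGF and other receptor signals, had 4.753 to 9.507 CPM in the SMARCB1 line and 0 to 2 counts in each library of the GFP line (adjusted p = 0.000618 under DMSO and 0.00242 with doxycycline). SPRY2 passed the filter through the SMARCB1 line, where it is high. Its counting ratio was 83.2 (95% interval 22.5 to 695) for 118 counts against 2 under DMSO. With doxycycline the ratio was 82.8 (95% interval 14.6 to 3300) for 118 against 1. Its relative SPRY1 was called with doxycycline (1.12, adjusted p = 0.0173), but not without either SMARCB1 Dox library (adjusted p = 0.21 and 0.0563). PTPRF, a receptor phosphatase, was higher by 1.31 under DMSO (adjusted p = 0.00677) and 1.30 with doxycycline (adjusted p = 0.00739). The first call was lost without SMARCB1 DMSO replicate 1 (adjusted p = 0.0704) or GFP DMSO replicate 1 (adjusted p = 0.166), the other without SMARCB1 Dox replicate 2 (adjusted p = 0.0963). The list medians were -0.12 and -0.06.

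Genes that growth factor signalling induces (25 listed, 22 tested) went in both directions. Under DMSO PHLDA1 and KLF6 were called higher in the SMARCB1 line and SPHK1, FOS and ETV5 lower, beside 2.49% of all genes each way. SPHK1, a sphingosine kinase, had 8.673 and 8.025 CPM against 86.79 and 103.9 CPM (log2 fold change -3.52, adjusted p = 1.15e-06) and was lower with doxycycline as well (-3.20, adjusted p = 2.36e-06). ETV5, an FGF-responsive transcription factor, was lower by -1.83 (adjusted p = 0.00625) and FOS, an immediate early gene, by -2.72 (adjusted p = 0.00493). PHLDA1 was higher by 1.33 (adjusted p = 0.00151) and 1.12 (adjusted p = 0.00544), and KLF6 by 1.13 (adjusted p = 0.0279) and 1.28 (adjusted p = 0.0128). KLF6 was not called under DMSO in 3 of the 4 fits without 1 library (adjusted p = 0.0695 to 0.421), FOS not without SMARCB1 DMSO replicate 2 (0.0874), ETV5 not without SMARCB1 DMSO replicate 1 (0.0827) and PHLDA1 not without GFP DMSO replicate 2 (0.0558). With doxycycline, KLF6 and PHLDA1 were not called without SMARCB1 Dox replicate 1 (adjusted p = 0.179 and 0.0885). With doxycycline 2 were called higher and 1 lower, beside 3.1% and 2.98% of all genes. The list medians were 0.09 and 0. Doxycycline within either line gave 0 calls in this list and in the negative regulators.

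PDGFRA was the most variable receptor, with a range of 7.23 on the log2 CPM scale (1 library to another), while FGFR2 varied least, by 0.608. The genes whose profile over the 8 libraries was most like that of PDGFRA, by the root mean square distance of log2 CPM values centered on each gene's mean, were ADRA1B (0.505), CHST2 (0.512) and ABTB3 (0.687), beside a median of 2.82 over all genes. ADRA1B, an adrenergic receptor, had 0 to 4 counts in the SMARCB1 line and 14.9 to 20.8 CPM in the GFP line. CHST2, a sulfotransferase, had 0 to 1.34 CPM and 27.7 to 47 CPM. ABTB3 had 0 to 5 counts and 25.1 to 30.1 CPM. ADRA1B, CHST2 and ABTB3 passed the filter through the GFP line, where they are high. For FGFR2, the nearest were DYNC2H1, a cilium motor (0.0731), SPATA5 (0.0764) and PHKA2 (0.0829), beside a median of 0.389. DYNC2H1, SPATA5 and PHKA2, like FGFR2, had their highest value in SMARCB1 DMSO replicate 1, a likeness by which they were chosen. These likenesses describe 8 libraries that share lines and depth.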

How the data were processed

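Ribosome-protected fragments were isolated with the RiboLace kit from 2 libraries in each of 4 groups. The authors aligned the reads with STAR to hg38 and counted, with HTSeq (intersection-strict), those lying on coding sequences of GENCODE release 42. The deposited values are raw counts per gene, without normalization, and the 5 totals of reads without a gene in each file were left out. Of all reads, 25.6% to 56.4% aligned to several places, 17.7% to 32.7% lay on no coding sequence and 0.759% to 1.16% on several genes. Adapter and ribosomal RNA handling and the strand option are not given in the sources used here.

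Computations used R 4.3.3 with edgeR 4.0.16 and DESeq2 1.42.0. After edgeR's filterByExpr and TMM scaling, 1 quasi-likelihood model (glmQLFit) with a term for each group was fitted to all 8 libraries. Genes were called at a Benjamini-Hochberg adjusted p below 0.05 over all 11097 genes tested and a fold change above 2. Standard errors were derived from the F statistics of that model, and intervals are 95%. Symbols, positions, sequences and the union of coding exons come from GENCODE annotation 44 on GRCh38, and 293 IDs without a symbol kept their ID. Protein identities were computed from the translated main transcripts. Counting intervals are exact binomial ones, and without molecular identifiers they cover counting error only.

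Receptors, the 9 lists and the rule for naming genes were chosen with earlier results of these data known. By the rule, all 10 receptors were named, from the other lists the called genes (up to 6 per list and comparison by p) and ligands with at least 10 counts in a library, and for the most variable and the most abundant receptor the 3 genes with the nearest profile. PDGFA and AXL in SMARCB1 Dox against SMARCB1 DMSO, KITLG and HGF, and the marker genes other than S100A4 are given as values. The alternatives were DESeq2's size factors, library size alone, DESeq2's Wald test, filters of 1 count in all and of 10 counts in every library, a block for the replicate number, robust dispersion, leaving out each library, and other coding lengths. The tests were checked on simulated counts, where most 2-fold changes were missed and most changes of a larger simulated size were called. A gene that was not called was therefore not shown to be unchanged. Replicates of a group differed beyond sampling noise (chi-square per degree of freedom 14.5 to 45.5), so each counts as 1 sample. Their log2 CPM values correlated at 0.95 to 0.985.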

Additional observations from a re-analysis of the deposited data

Results flagged for a closer look

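PDGFRB was picked out because its libraries lay in opposite directions with doxycycline in the 2 lines. Both SMARCB1 Dox libraries were below both SMARCB1 DMSO libraries, and both GFP Dox libraries were above both GFP DMSO libraries. The difference between these effects was -0.41 on the log2 scale (standard error 0.31, unadjusted p = 0.208, adjusted p = 0.981 in edgeR's quasi-likelihood test), so the direct test did not separate them.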

How the results depend on the processing

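The number of receptors called moved under few alternatives. With no filter beyond 1 count, 1 receptor (PDGFRA) was called in SMARCB1 Dox against SMARCB1 DMSO, where the reported fit called 0. With at least 10 counts in every library, PDGFRA itself was removed and 0 were called in SMARCB1 DMSO against GFP DMSO and 0 in SMARCB1 Dox against GFP Dox. Leaving out 1 library at a time gave 1 to 2 receptors in SMARCB1 Dox against GFP Dox, with FGFR3 as the second without GFP Dox replicate 2, where the calls over all genes were 1372 in place of 675. Over all genes that comparison had 348 to 565 calls without any other library of it, and SMARCB1 DMSO against GFP DMSO 299 to 438 in place of 552. Without GFP Dox replicate 2, 147 genes were called in GFP Dox against GFP DMSO and 105 for the difference between the lines, in place of 0, and 0 receptors among them. In the fits without GFP Dox replicate 2, that group was replicate 1 alone, where 56.4% of reads aligned to more than 1 place. With the replicate block, 1 receptor was called in each comparison of the lines and 0 elsewhere, which changed no call. Over all genes, SMARCB1 Dox against SMARCB1 DMSO had 2 calls in the reported fit, 13 with the replicate block, 34 with DESeq2, 46 with no filter and 1 with the filter of 10 counts per library, and without a filter GFP Dox against GFP DMSO had 14 and the difference between the lines 15 in place of 0. Under that filter of 10 counts the comparisons of the lines had 288 and 377 in place of 552 and 675. Samples with the same replicate number correlated by 0.0454 to 0.28 in their deviations from the group means, with 1 of 6 pairs not above 0.1. All 6 values were positive, and whether the numbers mark a shared effect was not tested. The reported fit did not pair the samples, and the replicate block is the alternative that does.

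Of 521 log2 fold changes of receptors under an alternative, 491 kept direction and side of the threshold, 2 passed it and 28 changed sign, all of these for uncalled values. PDGFRA in GFP Dox against GFP DMSO changed to -0.10 with library size as the only scaling and -0.02 with no filter, and FGFR1 in SMARCB1 DMSO against GFP DMSO to -0.04 with library size as the only scaling. Leaving out 1 library turned signs as follows. In SMARCB1 Dox against SMARCB1 DMSO the range was -0.08 to 0.50 for FGFR1, -0.29 to 1.21 for FGFR4, -0.32 to 0.45 for ERBB2 and -1.10 to 0.99 for MET. In GFP Dox against GFP DMSO it was -0.31 to 0.27 for PDGFRA, -0.67 to 0.14 for FGFR1, -0.21 to 0.08 for FGFR2, -0.14 to 0.39 for FGFR4 and -1.24 to 0.42 for MET. For the difference between the lines it was -0.44 to 1.06 for FGFR4 and -0.55 to 1.61 for MET. In SMARCB1 DMSO against GFP DMSO it was -0.30 to 0.28 for FGFR1, -0.11 to 0.30 for FGFR2, -0.68 to 0.82 for FGFR4 and -0.29 to 0.48 for ERBB2. The cause was not tested. Where a group is left with 1 library, it is assumed to vary like the others.

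Among the other genes named, DDR1, EPHA5 and GAB1 under DMSO and EPHB1 with doxycycline were not called with any 1 library of their comparison left out. CSF1R was lost in 6 of 10 settings, FYN in 4 of 10 and NCK2 in 4 of 11, while AXL, NRP2, SDC4, SPRY2 and SPHK1 kept every call in which they were named, as did NRG1 under DMSO. With doxycycline, the calls of GAB1, PDGFA and NRG1 were lost without SMARCB1 Dox replicate 1 (adjusted p = 0.0775, 0.08 and 0.0853). At this depth a difference in KIT was not detectable, and for MET the spread between replicates (59 and 11 counts in SMARCB1 Dox) was wide.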
